A study of Mus musculus with 12 samples.

Results

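The brush border peptidases are enzymes of the luminal membrane of the small intestinal enterocyte, and 9 of their genes were followed here in mouse jejunum. The genes were taken by name, as the array probes whose RefSeq accession maps to Enpep, Anpep, Xpnpep2, Dpp4, Ace, Naaladl1, Mep1a, Mep1b or Tmprss15. All 9 had a probe, with 11 probes in all, and all 9 were among the 27565 genes tested. Total RNA from the jejunum of male mice was hybridised to Agilent arrays, with 3 arrays in each of 4 groups. The groups were intestinal alkaline phosphatase knockout mice (IAP-KO, Akp3-/-) given IIAEK, IAP-KO mice given vehicle, wild-type (WT) mice given IIAEK and WT mice given vehicle. IIAEK, written in 1-letter amino acid code, is a pentapeptide that the submitters label as cholesterol-lowering. Mice of 7 weeks of age received it by mouth at 600 mg/kg body weight per day for 14 days in carboxymethylcellulose at 5 g/L, or that solution alone, and all were fasted for 8 h before the jejunum was taken. The duration is the one in the titles and the protocol, since the source field of the IIAEK samples writes the same figure in weeks. The labels name no Cre line for the knockout and give neither its strain background nor any pooling of mice. The 4 groups allow the effect of the peptide to be compared between mice with and without Akp3.

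Dietary protein reaches the enterocyte as oligopeptides, because the pancreatic proteases cut inside chains and leave fragments too long for uptake. Peptidases anchored in the brush border trim these fragments to free amino acids, dipeptides and tripeptides, which amino acid carriers and the peptide transporter PEPT1 then bring into the cell. The family divides the work by site of attack: some remove residues or dipeptides from the amino end, others from the carboxyl end, meprins cut within the chain, and enteropeptidase starts the pancreatic cascade by activating trypsinogen.

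Levels are log2 signals after subtraction of each array's own 75th percentile, so that 0 is the signal exceeded by 25% of probes; they serve to compare a gene between arrays and not 1 gene with another. Every member probe lay well above background on all 12 arrays and no spot was saturated. The arrays lay on 2 slides, which were scanned separately. Slide 1 held replicates 1 and 2 of both knockout groups and replicate 1 of both WT groups, and slide 2 held the rest. Across the arrays the 75th percentile signal ranged between 410 and 578, and the share of spots called well above background was 60% to 67.1%. Akp3, the targeted gene, was not well above background on any of the 6 knockout arrays, with levels between -6.83 and -5.48 in its brighter probe. In WT mice it was detected at -3.89, -1.11 and -1.24 on IIAEK, and on vehicle at -3.30 and -3.95 with the third array at -5.94, not well above background. Vil1, which encodes villin of the microvillus core and marks absorptive epithelium, lay between 7.21 and 7.84 on all 12 arrays. Genes of the exocrine pancreas, an organ that adjoins the proximal intestine, stood apart on 2 arrays: the mean level of 16 such genes was 7.59 on WT IIAEK replicate 3 and 3.29 on knockout vehicle replicate 3, against -2.42 to 0.61 on the other 10. The median difference of the peptidases in each comparison is therefore also given without those 2 arrays. The labels name mice but no litter or cage, so errors describe the spread between these 12 arrays.

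The upstream sequence of 4 peptidase genes is shown. Of these, Enpep, Dpp4 and Mep1a had the most similar levels over the arrays, with Pearson r of 0.93 to 0.94 between them. Tmprss15 is shown because its r was negative, at -0.47 with Enpep, -0.24 with Dpp4 and -0.44 with Mep1a (permutation adjusted p = 0.15, 0.46 and 0.17). Within slide 2 these r were -0.73, -0.64 and -0.78, but within slide 1 they were 0.51, 0.71 and 0.52. An opposite course of Tmprss15 was thus not seen on both slides. The 4 genes were picked after the r over all arrays were seen. The sequences are RefSeq windows on build GRCm38.p6 and hold the 250 bases before the annotated start, written 5′ to 3′ on the strand of the gene. Windows were on hand for 7 of the 9 members. Capitals mark 4 short words of intestinal transcription factors on either strand: GTTAAT for HNF1, TTTAT for CDX, AGATAA for GATA and CAAAG for HNF4. No word overlapped another in these windows.
Enpep, chr3:129332750-129332999, minus strand: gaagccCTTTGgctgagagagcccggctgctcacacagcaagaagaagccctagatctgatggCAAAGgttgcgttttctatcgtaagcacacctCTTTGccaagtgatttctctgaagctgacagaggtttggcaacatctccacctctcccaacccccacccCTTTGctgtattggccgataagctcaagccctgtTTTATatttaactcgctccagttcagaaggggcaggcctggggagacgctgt
Dpp4, chr2:62412232-62412481, minus strand: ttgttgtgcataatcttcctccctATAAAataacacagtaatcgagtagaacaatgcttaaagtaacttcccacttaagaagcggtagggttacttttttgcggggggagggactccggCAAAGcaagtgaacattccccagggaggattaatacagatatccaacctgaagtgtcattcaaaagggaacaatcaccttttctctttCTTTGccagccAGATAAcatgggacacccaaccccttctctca
Mep1a, chr17:43502774-43503023, minus strand: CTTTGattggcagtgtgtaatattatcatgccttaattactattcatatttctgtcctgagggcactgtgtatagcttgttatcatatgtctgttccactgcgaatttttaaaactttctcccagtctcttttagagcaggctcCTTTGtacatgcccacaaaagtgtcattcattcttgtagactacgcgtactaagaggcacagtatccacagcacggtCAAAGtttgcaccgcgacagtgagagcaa
Tmprss15, chr16:79091098-79091347, minus strand: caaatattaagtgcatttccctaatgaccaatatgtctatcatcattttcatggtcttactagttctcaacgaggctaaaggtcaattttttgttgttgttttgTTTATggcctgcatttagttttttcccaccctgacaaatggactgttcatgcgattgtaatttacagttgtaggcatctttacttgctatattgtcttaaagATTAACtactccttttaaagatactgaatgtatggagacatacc

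In the 4 windows shown, that of Enpep held 4 CAAAG words and 1 TTTAT word, the Dpp4 window 2 CAAAG words, 1 TTTAT and 1 AGATAA, and the Mep1a window 3 CAAAG words. The Tmprss15 window held 1 GTTAAT and 1 TTTAT and no CAAAG. Of the windows not shown, that of Anpep held 0 of the 4 words and that of Xpnpep2 held 1 CAAAG only. The windows of Ace together held 4 CAAAG and 1 TTTAT. Absence of CAAAG was thus not particular to Tmprss15. Among all 32851 windows of this length, 48.6% held CAAAG, 37.3% held TTTAT, 9.99% held AGATAA and 6.43% held GTTAAT. A match is a description of the letters only.

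**Figure D1:**
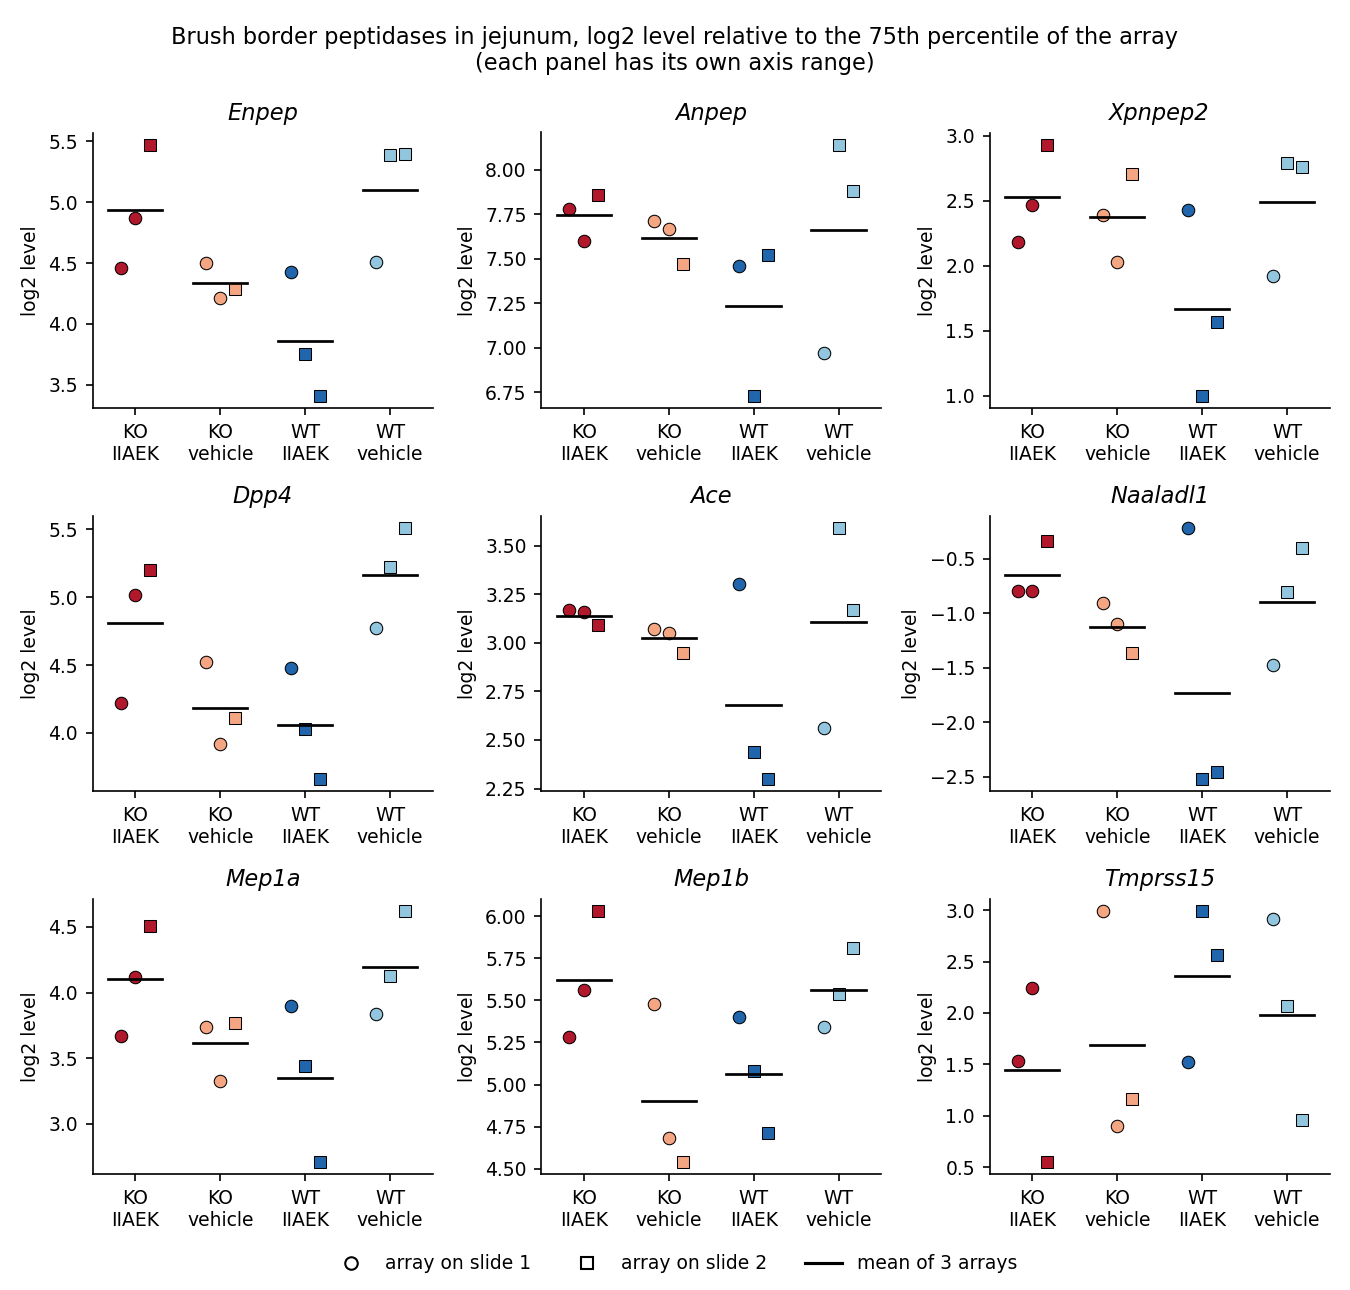
Log2 level of each of the 9 peptidase genes on each of the 12 arrays, with the array's 75th percentile as 0, 1 panel per gene and the groups in the order knockout IIAEK, knockout vehicle, WT IIAEK and WT vehicle. Circles are arrays of slide 1, squares arrays of slide 2 and bars the means of 3 arrays. In the Enpep panel the WT IIAEK squares lie at 3.75 and 3.41, below all other points.

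Among the aminopeptidases, Enpep encodes glutamyl aminopeptidase, which removes acidic residues from the amino end of peptides. Its level was 4.46, 4.87 and 5.47 in knockout mice on IIAEK, 4.50, 4.21 and 4.29 in knockout mice on vehicle, 4.43, 3.75 and 3.41 in WT mice on IIAEK and 4.51, 5.39 and 5.40 in WT mice on vehicle. The WT IIAEK arrays all lay below the WT vehicle arrays, while the knockout groups overlapped each other. On IIAEK the difference from vehicle was 0.60 in the knockout (SE 0.33, limma adjusted p = 0.893) and -1.23 in WT (SE 0.33, a 2.35-fold lower level, limma adjusted p = 0.373). The dimmer probe of Enpep gave 0.23 in the knockout and -1.25 in WT (SE 0.47 for each). In that probe the knockout IIAEK arrays read -0.75, -0.66 and 0.88, against -0.94, -0.14 and -0.14 on vehicle, so that 2 of the 3 lay below 2 of the vehicle arrays.

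Anpep encodes aminopeptidase N, which takes neutral residues from the amino end. Its level was 7.78, 7.60 and 7.86 in knockout mice on IIAEK, 7.71, 7.67 and 7.47 in knockout mice on vehicle, 7.46, 6.73 and 7.52 in WT mice on IIAEK and 6.97, 8.14 and 7.88 in WT mice on vehicle. The 6 knockout arrays spanned a narrow range, and the 3 WT vehicle arrays enclosed all others but WT IIAEK replicate 2. The IIAEK difference was 0.13 in the knockout (SE 0.29) and -0.43 in WT (SE 0.29), with 95% intervals of -0.50 to 0.76 and -1.05 to 0.20. The WT value was -0.77 without WT vehicle replicate 1 and -0.17 without WT IIAEK replicate 2.

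Xpnpep2 encodes membrane-bound aminopeptidase P, which frees an amino-terminal residue that stands before proline. Its level was 2.18, 2.47 and 2.93 in knockout mice on IIAEK, 2.39, 2.03 and 2.71 in knockout mice on vehicle, 2.43, 1.0 and 1.57 in WT mice on IIAEK and 1.92, 2.79 and 2.76 in WT mice on vehicle. The lowest values were those of WT IIAEK replicates 2 and 3, while replicate 1 of that group lay within the range of the others. The IIAEK difference was 0.15 in the knockout (SE 0.36) and -0.83 in WT (SE 0.36), and the WT value was -0.49 without WT IIAEK replicate 2 and -1.21 without WT IIAEK replicate 1.

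Dpp4 encodes dipeptidyl peptidase 4, which releases dipeptides that end in proline or alanine and also inactivates incretin hormones. Its level was 4.22, 5.02 and 5.20 in knockout mice on IIAEK, 4.52, 3.92 and 4.11 in knockout mice on vehicle, 4.48, 4.03 and 3.66 in WT mice on IIAEK and 4.77, 5.22 and 5.51 in WT mice on vehicle. The WT groups did not overlap, and in the knockout replicate 1 of the IIAEK group lay within the vehicle range while the other 2 lay above it. The IIAEK difference was 0.63 in the knockout (SE 0.30) and -1.11 in WT (SE 0.30, a 2.16-fold lower level), with limma adjusted p = 0.893 and 0.373. The dimmer Dpp4 probe gave 0.34 and -1.10 (SE 0.29 for each).

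From the carboxyl end, Ace encodes angiotensin-converting enzyme, which removes dipeptides. Its level was 3.17, 3.16 and 3.09 in knockout mice on IIAEK, 3.07, 3.05 and 2.95 in knockout mice on vehicle, 3.30, 2.44 and 2.30 in WT mice on IIAEK and 2.56, 3.59 and 3.17 in WT mice on vehicle. The 6 knockout arrays were close together, with an SD of 0.05 on IIAEK and 0.07 on vehicle, whereas the WT groups had SDs of 0.54 on IIAEK and 0.52 on vehicle. The knockout groups did not overlap, with a difference on IIAEK of 0.12 (SE 0.28), and the overlapping WT groups differed by -0.43 (SE 0.28). The WT value was -0.74 without WT IIAEK replicate 1 and -0.19 without WT vehicle replicate 2.

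Naaladl1 encodes an intestinal relative of glutamate carboxypeptidase. Its level was -0.80, -0.80 and -0.34 in knockout mice on IIAEK, -0.91, -1.10 and -1.37 in knockout mice on vehicle, -0.22, -2.52 and -2.46 in WT mice on IIAEK and -1.48, -0.81 and -0.40 in WT mice on vehicle. The WT IIAEK group thus held both the highest array of all, replicate 1, and the lowest. The IIAEK difference was 0.48 in the knockout (SE 0.51) and -0.83 in WT (SE 0.51), and the WT value was -1.59 without WT IIAEK replicate 1 and -0.44 without WT IIAEK replicate 2.

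The meprins are zinc endopeptidases that cut within peptide chains; the beta subunit holds the complex in the membrane. Mep1a, the alpha subunit, had levels of 3.67, 4.12 and 4.51 in knockout mice on IIAEK, 3.74, 3.33 and 3.77 in knockout mice on vehicle, 3.90, 3.44 and 2.71 in WT mice on IIAEK and 3.84, 4.13 and 4.62 in WT mice on vehicle. The knockout vehicle arrays all lay below the WT vehicle arrays, if narrowly. The other neighbouring groups overlapped. The Mep1a difference on IIAEK was 0.49 in the knockout and -0.84 in WT (SE 0.32 for each).

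Mep1b, the beta subunit, had levels of 5.28, 5.56 and 6.03 in knockout mice on IIAEK, 5.48, 4.68 and 4.54 in knockout mice on vehicle, 5.40, 5.08 and 4.71 in WT mice on IIAEK and 5.34, 5.54 and 5.81 in WT mice on vehicle. The knockout on IIAEK and WT on vehicle were high and the other groups low, with replicate 1 of each low group inside the range of the high ones. Its IIAEK difference was 0.72 in the knockout (SE 0.28) and -0.50 in WT (SE 0.28).

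Tmprss15 encodes enteropeptidase, the serine protease that activates trypsinogen and is known chiefly from the duodenum. Its level was 1.53, 2.24 and 0.55 in knockout mice on IIAEK, 2.99, 0.90 and 1.16 in knockout mice on vehicle, 1.52, 2.99 and 2.56 in WT mice on IIAEK and 2.91, 2.07 and 0.96 in WT mice on vehicle. All groups overlapped widely. The IIAEK difference was -0.24 in the knockout and 0.38 in WT (SE 0.65 for each), the only member whose signs ran opposite to the rest. Leaving out 1 array turned these signs: the knockout value was 0.41 without knockout vehicle replicate 1, and the WT value was -0.13 without WT vehicle replicate 3.

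By group mean, Enpep, Dpp4 and Mep1a shared 1 order over the 4 groups. For Enpep the means were 4.93 ± 0.51 in knockout mice on IIAEK, 4.34 ± 0.15 in knockout mice on vehicle, 3.86 ± 0.52 in WT mice on IIAEK and 5.10 ± 0.51 in WT mice on vehicle (SD, n = 3 arrays each). WT on vehicle was thus highest, followed by the knockout on IIAEK, the knockout on vehicle and WT on IIAEK. Each group in this order overlapped its neighbour in single arrays, so only groups farther apart were separate. For Mep1b the means were 5.62 ± 0.38 in knockout mice on IIAEK, 4.90 ± 0.51 in knockout mice on vehicle, 5.06 ± 0.34 in WT mice on IIAEK and 5.56 ± 0.23 in WT mice on vehicle, so the knockout on IIAEK was highest and the knockout on vehicle lowest. WT on IIAEK was the lowest group for Anpep, Xpnpep2, Ace and Naaladl1 as well, and the highest for Tmprss15.

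**Figure D2:**
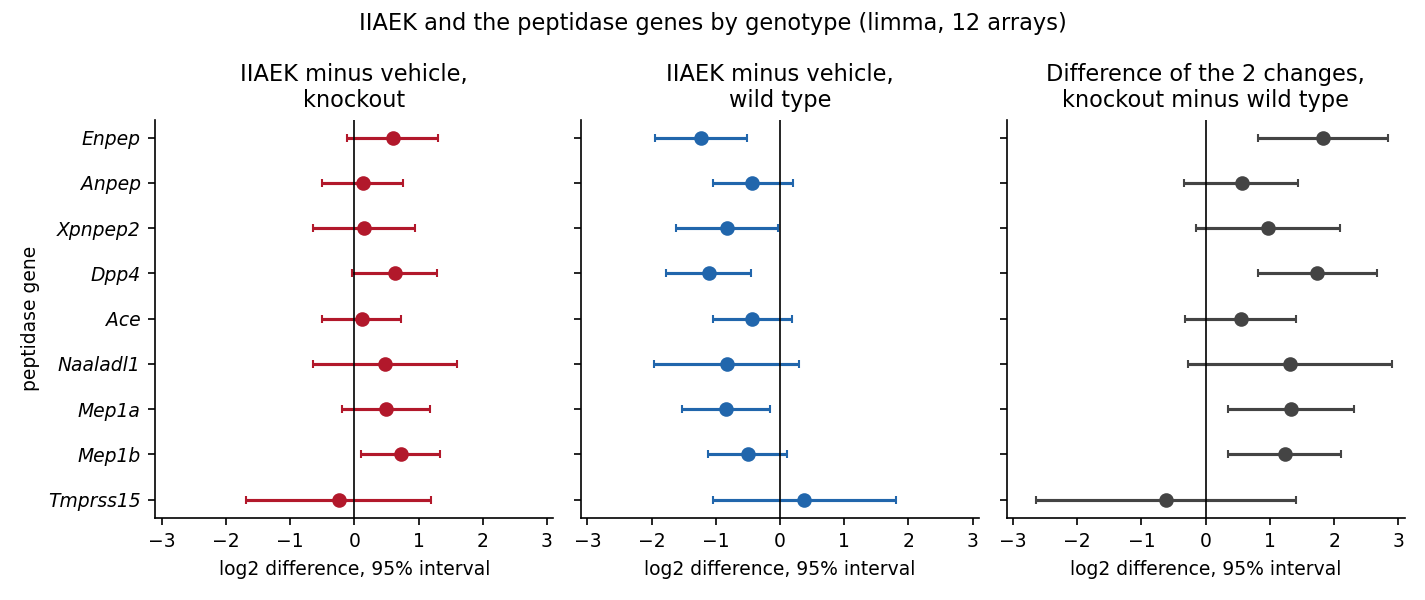
Log2 difference between IIAEK and vehicle for each peptidase gene in the knockout (left), in wild type (middle) and the difference of these changes, knockout minus wild type (right), as estimates with 95% intervals from limma over 12 arrays. In 8 of 9 genes the estimate lies above 0 in the knockout and below 0 in wild type. Tmprss15 is the exception.

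The effect of IIAEK was first compared in knockout mice. Of the 9 peptidase genes 8 were above 0, with a median log2 difference of 0.48, against a median of 0.02 over all genes. None of the 9 passed an adjusted p of 0.05 in limma, as was true of all genes tested (0%). Mep1b alone had an unadjusted p under 0.05, and 2.34% of all genes did so as higher. Ace and Naaladl1 had knockout groups that did not overlap, as did 5.11% of all genes in the higher direction. Within each slide 8 members were again above 0, with a median of 0.20 from the 2 arrays against 2 of slide 1 and 0.73 from the 1 against 1 of slide 2. Without knockout IIAEK replicate 3 the median was 0.28, with Enpep at 0.33, Mep1a at 0.28 and Xpnpep2 at -0.06.

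In WT mice 8 of the 9 were below 0 on IIAEK, with a median of -0.83, against -0.06 over all genes, of which 56.2% were below 0. None passed in limma (0% of all genes), and the smallest adjusted p among the members was 0.373. Enpep, Dpp4, Mep1a and Xpnpep2 had an unadjusted p under 0.05, as had 6.98% of all genes as lower. Enpep and Dpp4 had groups that did not overlap, as had 14.3% of all genes in that direction. The slides did not give the same picture. Within slide 2, from 2 arrays against 2, 8 members were below 0 with a median of -1.30, Enpep at -1.81 and Naaladl1 at -1.88. Within slide 1, from 1 array against 1, 6 members were above 0 with a median of 0.06, Enpep at -0.08, Dpp4 at -0.29 and Naaladl1 at 1.27. Without WT IIAEK replicate 2 the median was -0.49, and without the 2 arrays high in pancreas genes it was -0.52, with Enpep at -1.01. Leaving out WT IIAEK replicate 3 alone gave -0.52 for Mep1a and -0.32 for Mep1b.

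The interaction is the IIAEK difference in the knockout minus that in WT. It was 1.83 for Enpep (SE 0.46), 1.74 for Dpp4 (SE 0.42), 1.33 for Mep1a (SE 0.45) and 1.23 for Mep1b (SE 0.40), each with an unadjusted p under 0.05, which 9.57% of all genes reached as higher. None of them passed in limma (adjusted p = 0.303 for each), nor did any gene tested (0%). The remaining members were between -0.62 for Tmprss15 and 1.31 for Naaladl1, and the median over the 9 was 1.23, against 0.07 over all genes. Slide 2 alone gave a median of 2.03 and slide 1 alone 0.28, where Enpep was at 0.39, Dpp4 at 0.69 and Naaladl1 at -1.06. Without the 2 arrays high in pancreas genes it was 0.87, with Enpep at 1.58 and Dpp4 at 1.51. The dimmer probes gave an interaction of 1.48 for Enpep (SE 0.66) and 1.45 for Dpp4 (SE 0.41).

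**Figure D3:**
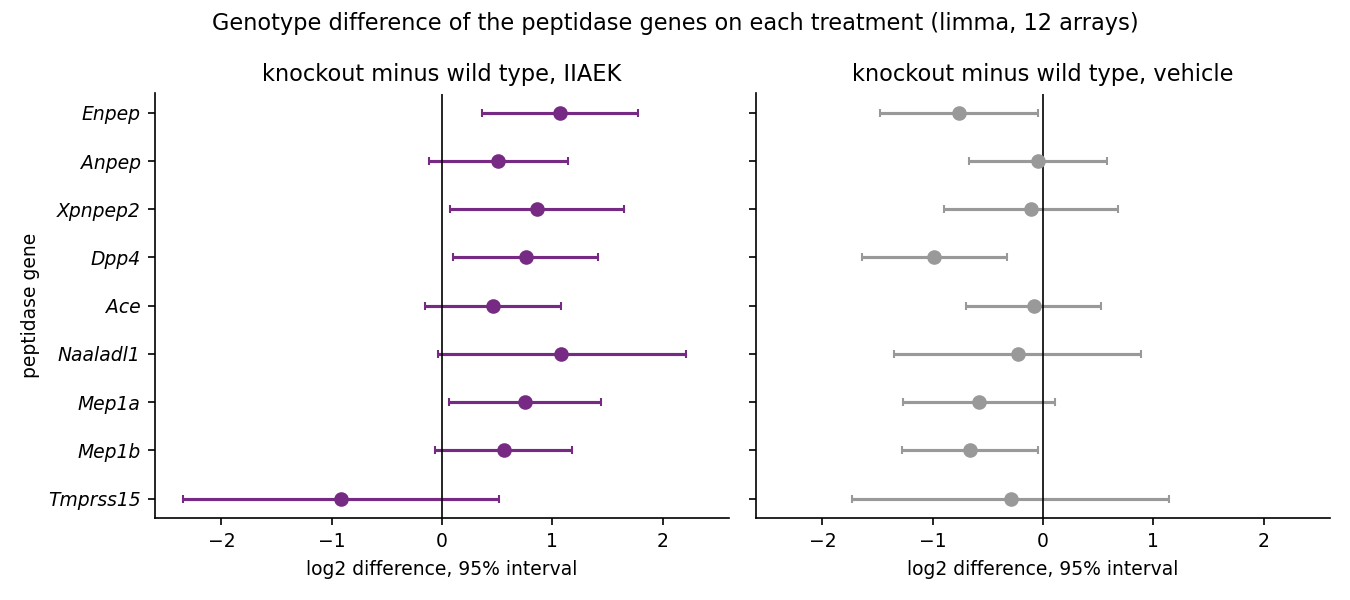
Log2 difference between knockout and wild type for each peptidase gene on IIAEK (left) and on vehicle (right), as estimates with 95% intervals from limma over 12 arrays. On IIAEK 8 of 9 estimates lie above 0 and on vehicle all 9 lie below 0.

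The genotypes were then compared on each treatment. These comparisons share their arrays with the IIAEK comparisons, so that a high WT vehicle group enters both. On IIAEK 8 of 9 peptidase genes were higher in the knockout than in WT, with a median difference of 0.75, against 0.03 over all genes. Enpep differed by 1.07 (SE 0.33), Xpnpep2 by 0.86 (SE 0.36), Dpp4 by 0.76 (SE 0.30) and Mep1a by 0.75 (SE 0.32), each at an unadjusted p under 0.05, as did 4.96% of all genes as higher. No member passed in limma (adjusted p = 0.619 for each of these 4), and 0% of all genes did. Enpep and Anpep had groups that did not overlap, as had 6.52% of all genes in that direction. Slide 2 alone gave a median of 1.36 and slide 1 alone 0.02, with 5 members above 0 and 4 below.

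On vehicle all 9 were lower in the knockout, with a median of -0.29, against -0.03 over all genes. Dpp4 differed by -0.99 (SE 0.30), Enpep by -0.76 (SE 0.33) and Mep1b by -0.66 (SE 0.28), with an unadjusted p under 0.05, which 6.58% of all genes reached as lower. None passed in limma (adjusted p = 0.428 for Dpp4), and 0% of all genes did. For Enpep, Dpp4 and Mep1a the groups did not overlap, as for 13.3% of all genes in that direction. The dimmer probe of Enpep gave -0.44 (SE 0.47), with groups that overlapped. The dimmer Dpp4 probe gave -0.68 (SE 0.29). Anpep, Xpnpep2 and Ace lay between -0.11 and -0.05. Slide 1 alone gave -0.15, with 4 members above 0, and slide 2 alone -0.60, with 9 below 0. Without knockout vehicle replicate 1 the median was -0.64.

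Averaged over treatments, the knockout differed from WT by a median of 0.15, from -0.60 for Tmprss15 to 0.43 for Naaladl1. No member had an unadjusted p under 0.05 in limma, against 5.5% of all genes, and 1 gene of all those tested passed the adjusted threshold (0.00363%), Glrp1, which is no peptidase. Averaged over genotypes, IIAEK differed from vehicle by a median of -0.18, from -0.34 for Xpnpep2 to 0.11 for Mep1b. No member had an unadjusted p under 0.05, against 3.49% of all genes, and 0% of all genes passed the adjusted threshold. Without WT vehicle replicate 1 the genotype median was 0.00 and without WT IIAEK replicate 1 it was 0.29, while slide 1 alone gave -0.05. The IIAEK median was -0.32 without WT vehicle replicate 1, -0.06 without WT IIAEK replicate 3 and 0.21 in slide 1 alone. Without the 2 arrays high in pancreas genes the genotype median was 0.05 and the IIAEK median -0.12. For all 9 members the IIAEK average combines estimates of opposite sign in the knockout and in WT.

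**Figure D4:**
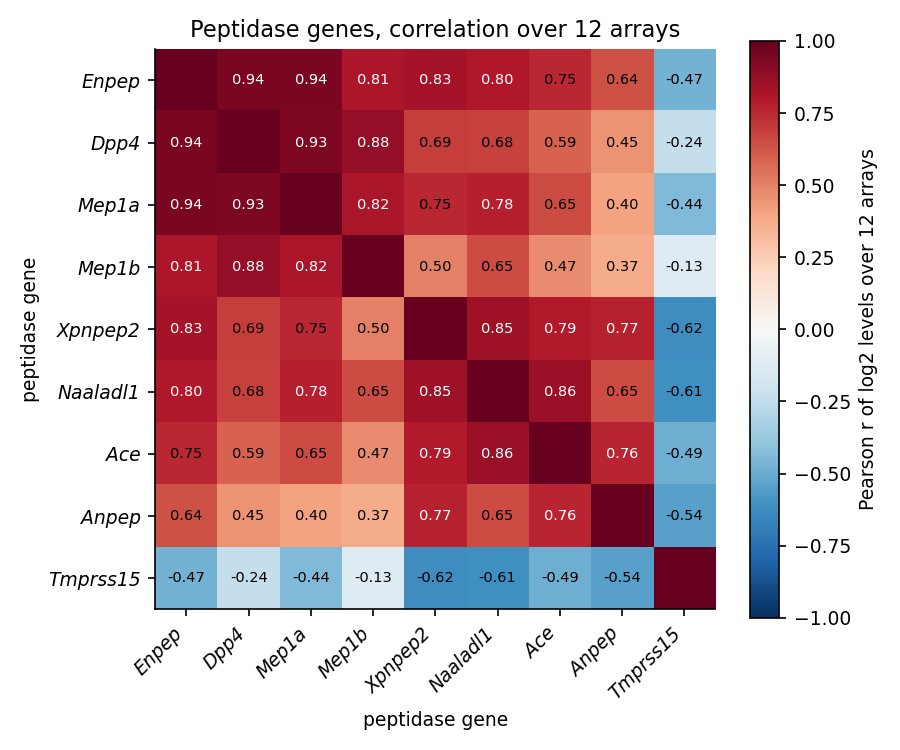
Pearson correlation of the log2 levels of each pair of peptidase genes over the 12 arrays, from -1 (blue) to 1 (red). Enpep, Dpp4 and Mep1a form the block of highest values, 0.93 to 0.94, and the row of Tmprss15 is below 0 throughout, from -0.62 to -0.13.

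The 9 genes were next compared with each other over the 12 arrays, in 36 pairs with p-values adjusted over them. Among the 8 members other than Tmprss15 every one of the 28 pairs had r above 0, between 0.37 and 0.94 with a median of 0.755, and Spearman's rho lay between 0.48 and 0.97. After adjustment 22 pairs passed 0.05 by r and 19 by rho in permutation tests. The permutations moved arrays freely between groups and slides, so differences between groups or slides that many genes share enter these p-values. The share of other gene pairs that would pass was not computed. High r was not confined to the family: Tmem14a, the closest other named gene to Dpp4, had r = 0.970 with it. Enpep and Dpp4 had r = 0.94 and rho = 0.97 (permutation adjusted p = 0.00018 and 0.00072), and r = 0.92 without the 2 arrays farthest from the median of Enpep. Enpep and Mep1a had r = 0.94 and rho = 0.91 (permutation adjusted p = 0.00024 and 0.00096), and r was 0.88 without the 2 farthest arrays. The lowest r, 0.37, was that of Anpep and Mep1b, with rho = 0.57 (permutation adjusted p = 0.25 and 0.075).

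Within slide 2 these 28 pairs had r between 0.50 and 0.97. Within slide 1 r lay between -0.45 and 0.93 and was above 0 in 22 of the 28. Enpep and Dpp4 held within each slide, at 0.90 and 0.97, as did Dpp4 and Mep1a, at 0.93 and 0.94, whereas Dpp4 and Anpep gave -0.45 in slide 1 and 0.72 in slide 2. Ace and Naaladl1 also held in each, at 0.89 and 0.85. In slide 1, Enpep, Dpp4, Mep1a and Mep1b had r of 0.80 to 0.93 between them, and Anpep, Xpnpep2, Ace and Naaladl1 had r of 0.45 to 0.89, a grouping made after the values were seen.

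Tmprss15 had r below 0 with all 8 others, between -0.62 for Xpnpep2 and -0.13 for Mep1b, and 1 of these 8 pairs passed by r and 0 by rho in permutation tests. With Xpnpep2 the values were r = -0.62 and rho = -0.59 (permutation adjusted p = 0.047 and 0.07), and r was -0.43 without the 2 farthest arrays. Within slide 2 all 8 lay between -0.87 and -0.51, and within slide 1 they lay between -0.54 and 0.71, with 5 above 0.

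The mean of the 8 members without Tmprss15, each centred on its own mean over the 12 arrays, was 0.00, 0.26 and 0.60 in knockout mice on IIAEK, 0.07, -0.27 and -0.18 in knockout mice on vehicle, 0.16, -0.75 and -0.81 in WT mice on IIAEK and -0.19, 0.51 and 0.60 in WT mice on vehicle. WT IIAEK replicates 2 and 3 were the lowest arrays and WT vehicle replicates 2 and 3 were among the highest, all 4 of them on slide 2. The 6 arrays of slide 1 lay between -0.27 and 0.26.

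**Figure D5:**
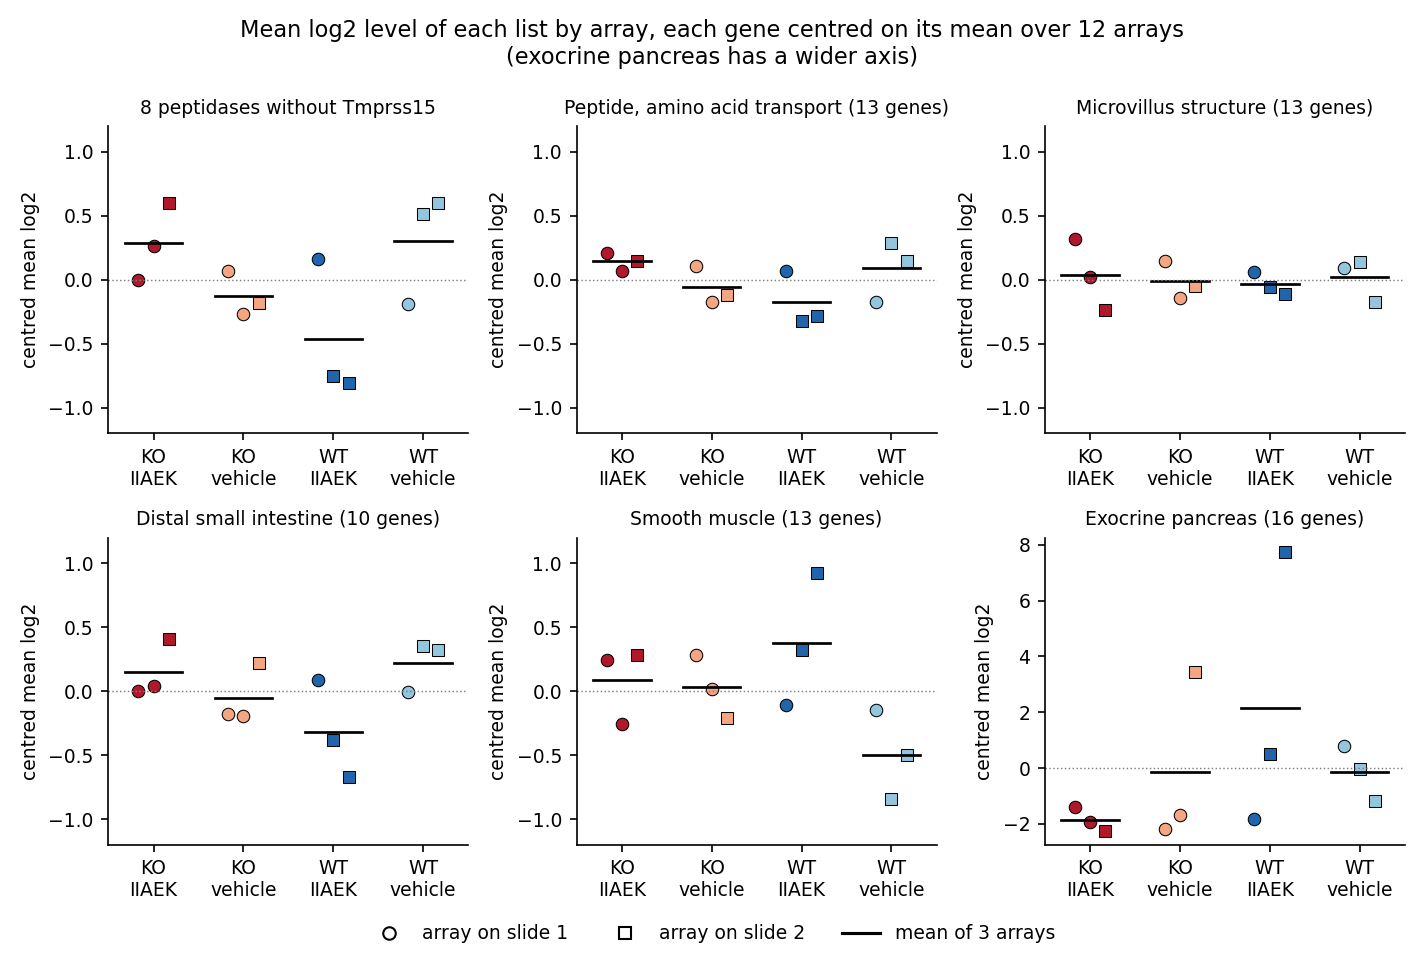
Mean log2 level by array of the 8 peptidases without Tmprss15 and of 5 other gene lists, each gene centred on its mean over the 12 arrays; circles are slide 1, squares slide 2 and bars means of 3 arrays. The transporter and distal lists have their lowest arrays in WT on IIAEK, as the peptidases do. The microvillus list has its lowest array in the knockout on IIAEK. Its range of -0.24 to 0.32 is about as wide as that of the transporters, -0.32 to 0.29.

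Other genes of protein digestion were read as lists. Of 18 further peptidases tested, 9 were below 0 and 9 above in WT on IIAEK, with a median of -0.02. At an unadjusted p under 0.05, 3 were lower, as were 6.98% of all genes. Among them were Mme, the endopeptidase neprilysin, at -0.91 (SE 0.34), and Lap3, the cytosolic leucine aminopeptidase, at -0.74 (SE 0.29). In the knockout 13 of the 18 were above 0 on IIAEK and 5 below, with a median of 0.16. In the interaction 11 were above 0 and 7 below, with a median of 0.11. There 6 were higher at an unadjusted p under 0.05 and 0 lower, against 9.57% of all genes as higher. The interaction of Lap3 was 1.32 (SE 0.41). None of the list passed in limma in any of these comparisons (adjusted p = 0.373 for Mme and for Lap3 in WT).

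Of 13 transporters of peptides and amino acids, 12 were below 0 in WT on IIAEK, with a median of -0.19, and 9 were above 0 in the knockout, with a median of 0.23. Slc36a1, a proton-coupled amino acid transporter, differed by -0.75 in WT (SE 0.28). Slc3a1, the partner subunit of the carrier for cystine and dibasic amino acids, differed by 0.67 in the knockout (SE 0.23) and by -0.51 in WT (SE 0.23), and Slc7a9, the carrier it pairs with, by 0.40 in the knockout (SE 0.16). Slc15a1, the peptide transporter PEPT1, differed by 0.43 in the knockout and -0.84 in WT (SE 0.60 for each). No transporter passed in limma.

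Of 7 brush border enzymes for sugars and lipids, 4 were below 0 in WT on IIAEK, with a median of -0.05. Sis, sucrase-isomaltase, differed by -0.40 (SE 0.15), Mgam, maltase-glucoamylase, by -0.37 (SE 0.17) and Asah2, neutral ceramidase, by -0.90 (SE 0.38). All 3 had an unadjusted p under 0.05, as had 6.98% of all genes as lower, and none passed in limma (adjusted p between 0.373 and 0.387). The other 3 of the 7 lay above 0, among them Alpi, an alkaline phosphatase, at 0.56 (SE 0.26). Of 13 genes of microvillus structure 7 were below 0 in WT on IIAEK, with a median of -0.03 and Vil1 at -0.03 (SE 0.17). Pdzk1, a scaffold of brush border transporters, differed by -0.53 (SE 0.22).

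Markers of position along the gut and of other tissues also differed between these arrays. Of 10 genes of the distal small intestine, 9 were below 0 in WT on IIAEK, with a median of -0.58. The mean of that list, centred as above, was 0.00, 0.04 and 0.41 in knockout mice on IIAEK, -0.18, -0.19 and 0.22 in knockout mice on vehicle, 0.09, -0.38 and -0.67 in WT mice on IIAEK and -0.01, 0.35 and 0.32 in WT mice on vehicle. Slc51b, which helps to export bile acids across the basolateral membrane, differed by -0.84 in WT on IIAEK (SE 0.18), Nts, the ileal hormone neurotensin, by -1.14 (SE 0.50) and Guca2a, guanylin, by -1.12 (SE 0.45). Of 11 genes of the proximal small intestine 8 were above 0 in the same comparison, with a median of 0.27. Their part in the peptidase values was not tested.

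Smooth muscle genes ran the other way in WT on IIAEK, with 13 of 13 above 0 and a median of 0.89. Their centred mean was 0.24, -0.26 and 0.28 in knockout mice on IIAEK, 0.28, 0.02 and -0.21 in knockout mice on vehicle, -0.11, 0.32 and 0.92 in WT mice on IIAEK and -0.15, -0.84 and -0.50 in WT mice on vehicle. Acta2, smooth muscle actin, differed by 1.15 (SE 0.30) and Des, desmin, by 1.18 (SE 0.30). All 16 exocrine pancreas genes were above 0 as well, with a median of 2.58. The 10 genes of epithelial structure had a median of 0.15, with a centred mean between -0.21 and 0.26 on the 12 arrays. With each array scaled on those epithelial genes in place of the 75th percentile, the WT difference was -1.38 for Enpep and -1.25 for Dpp4, with a median of -0.97 over the members and -0.20 over all genes. The interaction median was then 1.28 over the members and 0.13 over all genes. In whole jejunum, fewer cells that carry a transcript and less transcript per cell cannot be told apart. B and plasma cell genes differed most in the knockout, where 10 of 12 were below 0 on IIAEK with a median of -2.86, 9 of them at an unadjusted p under 0.05, which 4.63% of all genes reached in either direction. Their centred mean was -1.29, -0.87 and -1.59 in knockout mice on IIAEK, 1.19, 1.56 and 1.02 in knockout mice on vehicle, -0.92, 1.51 and 0.87 in WT mice on IIAEK and -1.28, -1.48 and 1.28 in WT mice on vehicle. Genes of goblet and Paneth cells, the secretory cells of the epithelium, had median IIAEK differences of the same signs as the peptidases in the knockout and in WT. Averaged over genotypes the signs differed, with a median of 0.13 for these genes and -0.18 for the peptidases. In the knockout 10 of 12 secretory cell genes were above 0 on IIAEK, with a median of 0.42. Of these, 6 were higher at an unadjusted p under 0.05, as were 2.34% of all genes. In WT 10 of 12 were below 0, with a median of -0.23 and 0 at that level. Their centred mean was 0.18, 0.17 and 0.73 in knockout mice on IIAEK, 0.05, -0.31 and -0.35 in knockout mice on vehicle, -0.02, -0.33 and -0.21 in WT mice on IIAEK and 0.30, -0.12 and -0.08 in WT mice on vehicle. The arrays did not all follow the peptidases: WT vehicle replicate 1 was the highest of its group here, at 0.30. For the mean of the peptidases without Tmprss15 it was the lowest of its group, at -0.19. The interaction median of the secretory cell genes was 0.66, and none passed in limma. The part of muscle, pancreas, B cells and secretory cells in the peptidase values was not tested.

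Likeness in pattern was measured as Pearson r over the 12 arrays against 15795 other named genes. The genes most like the mean of the 9 peptidases were Lap3, with r = 0.961, Rpgr at 0.922, Smbd1 at 0.920, Fam118a at 0.919 and Sat2 at 0.910. Lap3 was measured at 5.73, 5.90 and 6.12 in knockout mice on IIAEK, 5.72, 5.18 and 5.09 in knockout mice on vehicle, 5.83, 4.93 and 4.65 in WT mice on IIAEK and 5.59, 5.89 and 6.14 in WT mice on vehicle. The lowest Lap3 arrays were WT IIAEK replicates 3 and 2, and replicate 1 of that group lay among the others. Its likeness to the peptidase mean was 0.92 within slide 1 and 0.98 within slide 2.

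For the single members the nearest gene differed. Tmem14a was nearest to both Enpep and Dpp4, with r = 0.956 and 0.970. Orc3 was nearest to Mep1a at 0.965, S100a14 to Mep1b at 0.961 and Glud1, mitochondrial glutamate dehydrogenase, to Xpnpep2 at 0.948, though at 0.49 within slide 1 and 0.98 within slide 2. Slc28a1, a concentrative nucleoside transporter, was nearest to Naaladl1 at 0.950, Tmem88b to Ace at 0.897 and Car4, the membrane-bound carbonic anhydrase, to Anpep at 0.865. Adm, which encodes adrenomedullin, was nearest to Tmprss15 at 0.885. These values are the highest of many and are given as descriptions.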

How the data were processed

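Jejunum RNA was labelled with Cy3 and hybridised to 12 1-colour Agilent arrays, per the labels. The deposited array files hold, per the file headers, the processed signal of Feature Extraction 10.7.3.1 as a background-subtracted intensity not scaled between arrays; the design is annotated on mm9. The deposited value table is in log2, its scale and centring unstated; it followed the centred log2 signal of the same arrays and served as an alternative. Outlier spots (0 to 4 per array) and controls were removed, spots of a probe averaged, log2 taken and the 75th percentile over probes subtracted. RefSeq accessions named 32994 of 56605 probes. The brightest probe stood for a gene, and each probe without a symbol counted as a gene of its own. In this way 27565 genes detected on the 3 arrays of some group were tested with limma 3.58.1 in R 4.3.3 (4 group means, 8 residual degrees of freedom, two-sided, Benjamini-Hochberg adjustment over all genes, threshold 0.05). Of these, 15812 had a symbol. Shares and medians over all genes include the probes without one. SE and 95% intervals are those of limma. Correlations used 100000 permutations. The script was tested on simulated data. Beside the members, up to 3 genes of smallest p per list and comparison, Slc15a1, Akp3, Alpi and Vil1, and the genes of closest pattern are named; not all of these are printed, and 1 gene is not reported here. Members and lists were chosen with earlier results of these data known. Alternatives covered background correction, scaling, detection filter, probe rule, value source, slide, replicate number, samples fitted, each array left out and the 2 arrays high in pancreas genes. The precision is limited by 3 arrays per group.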

Additional observations from a re-analysis of the deposited data

Results flagged for a closer look

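The IIAEK difference of 4 peptidase genes ran opposite ways in the genotypes when each IIAEK array was set against the vehicle mean of its own genotype, taken over both slides. For Enpep, with an interaction of 1.83, the knockout arrays lay 0.12, 0.54 and 1.13 above that mean and the WT arrays at -0.67, -1.34 and -1.69. For Dpp4, with an interaction of 1.74, the values were 0.04, 0.84 and 1.02 in the knockout and -0.68, -1.14 and -1.51 in WT. For Mep1a, at 1.33, they were 0.06, 0.51 and 0.89 in the knockout and -0.29, -0.75 and -1.48 in WT, and for Mep1b, at 1.23, they were 0.38, 0.66 and 1.13 in the knockout and -0.17, -0.48 and -0.86 in WT. The difference itself missed the threshold for each of the 4 over all genes (limma adjusted p = 0.303). In each genotype the array closest to 0 was replicate 1, on slide 1. Within slide 1, where WT has 1 array per treatment, the IIAEK difference in WT was -0.08 for Enpep, -0.29 for Dpp4, 0.06 for Mep1a and 0.06 for Mep1b, so the last 2 did not run opposite ways there. The 4 genes are the members with an unadjusted p under 0.05 in the limma interaction, which 9.57% of all genes reached as higher. Opposite signs are partly given by that choice, and the share of all genes that show them was not computed. Naaladl1, with an interaction of 1.31, is not among the 4. Its WT IIAEK replicate 1 was at -0.22, above the WT vehicle mean of -0.90.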

How the results depend on the processing

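No member was called in any of the 7 comparisons under any of their 24 or 25 alternatives, and the smallest adjusted p of a member in limma was 0.061, for knockout against WT on IIAEK within slide 2. The medians moved with the slide. Within slide 1 alone the median was 0.06 for IIAEK in WT, 0.02 for knockout against WT on IIAEK, 0.28 for the interaction and 0.21 for IIAEK averaged over genotypes; within slide 2 alone the first 3 were -1.30, 1.36 and 2.03. Slide 1 has 1 WT array per treatment and slide 2 has 1 knockout array per treatment, so a lone array is assumed to vary like the others. Without the 2 arrays high in pancreas genes the interaction median was 0.87. Leaving out 1 array at a time, the median for knockout against WT on vehicle ran from -0.64 to -0.24. The cause of these shifts was not tested. Replicate numbers are shared between groups. The deviations of genes from their group means were therefore correlated between same-numbered arrays of 2 groups. These correlations ran from -0.25 to 0.35, and 4 of 12 exceeded 0.1, so the numbers were not taken as pairs. With a replicate block the Enpep difference in WT stayed at -1.23 (limma adjusted p = 0.384) and no member was called. Counts over all genes moved more: fits on only the groups compared called 14 genes for IIAEK in the knockout, 5 for knockout against WT on IIAEK and 1 on vehicle, and slide 2 alone called 18, 41 and 11 for these, 9 for IIAEK in WT, 4 for the interaction, 15 for the IIAEK average and 113 for the genotype average, while slide 1 alone called 20 for knockout against WT on vehicle and 7 for IIAEK in the knockout, none of them a member.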
